A study of Mus musculus with 6 samples.

Results

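TRBV31 is a mouse TCR Vβ gene, known as Vβ14 in an older naming. Its productive chains were taken from 3 single-cell TCR libraries as every TRB contig marked productive with TRBV31 as its V gene. They came from 119 of the 1057 cell barcodes with a productive TRB, of 1089 barcodes in all, and made up 120 contigs. A productive TRA was found in 104 of these cells, out of 970 cells with both chains, and these 104 cells carried 42 of the 691 distinct clonotypes. Cells of 1 library were counted as 1 clonotype where both chains matched in V gene, in J gene and in every nucleotide of CDR3. TRBV31 was selected on its measured share of cells and clonotypes in these libraries, so its levels are given as a description, with no test.

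The cells were CD4 single positive T cells from lymph nodes (LN) of mice carrying the dominant hypomorphic Aire GW allele and lacking the kinase Lyn (AireGW/+ Lyn-/-), sorted for binding of an I-Ab tetramer of P2, a peptide of the retinal protein IRBP. The mice were 9 wk of age. Datasets 1 and 2 came from pooled mice with uveitis and the third library from pooled mice without uveitis, so that every library shared the genotype, the tissue and the P2 sort, and a pool counts as 1 sample. No test between the conditions was made: with 2 pools against 1, an exact permutation test cannot give a p below 0.333. The exact (Clopper-Pearson) 95% intervals given below cover counting error only, not differences between mice. Those over cells treat cells of 1 clonotype as separate draws, so they are too narrow where 1 clonotype is large.

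Dataset 1 held 5302 UMIs over all contigs, dataset 2 held 7439 and the library without uveitis 21408, a UMI being a tag that marks 1 captured RNA molecule. The files hold TCR contigs alone, so that CD4 and other surface markers could not be checked. No barcode with TRBV31 carried an immunoglobulin, γ or δ contig, although dataset 1 held 11 immunoglobulin contigs and 6 γ or δ contigs. No TRBV31 cell carried the invariant alpha chain of NKT or MAIT cells. Dataset 2 and the library without uveitis shared 1 barcode, which had no TRBV31 chain.

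A TCR β chain is built in the thymus from a V, a D and a J segment, and the joined stretch, CDR3, is the part of the chain that usually contacts the peptide. Almost all Vβ genes lie upstream of the D, J and C segments in the same orientation and join by deleting the DNA between. TRBV31 lies on the far side of both D-J-C clusters in the opposite orientation, so that it joins by inversion and the DNA between stays on the chromosome. In the GRCm38 annotation (GENCODE M21), Trbv31 occupied chromosome 6 from 41557691 to 41558452 on the minus strand. It was the only one of 35 annotated Vβ genes and pseudogenes on that strand, and it began 9.34 kb past the end of Trbc2. The 12 bases of Trbd1 (41533201 to 41533212) lay 24.5 kb away and the 14 bases of Trbd2 (41542163 to 41542176) 15.5 kb away, whereas Trbv30, the nearest Vβ gene on the upstream side, lay 251 kb from Trbd1.

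The germline segments that meet in the chains described here are given first, since the CDR3 sequences of the clonotypes are read against them. They are written 5′ to 3′ in lower case. The end of Trbv31 is printed from the codon of the conserved cysteine to the last base of the shorter of its annotated transcripts, chromosome 6 from 41557693 to 41557706 on the minus strand, in the second, V-encoding exon. The other annotated transcript runs 2 bases further, with CA, to 41557691, and these bases were counted as lying between V and J.
Trbv31 end: tgtgcctggagtct
TRBD1: gggacagggggc
TRBD2: gggactgggggggc
TRBJ1-3: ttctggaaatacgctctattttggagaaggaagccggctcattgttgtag
TRBJ1-6: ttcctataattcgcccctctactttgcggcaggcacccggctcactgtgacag
TRBJ2-1: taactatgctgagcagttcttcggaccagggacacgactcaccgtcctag
TRBJ2-7: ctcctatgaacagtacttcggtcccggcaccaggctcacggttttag

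The clonotypes in the most cells of each library, and those whose chains recurred, had the CDR3β sequences below, which are named by their protein sequence or, where this is longer than 14 amino acids, by their J segment and number of cells. Capitals mark the bases between the V and J stretches, those matched by neither the germline end of Trbv31 nor the germline start of the J segment, so that D bases are in capitals too.
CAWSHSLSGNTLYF, dataset 2, 37 cells: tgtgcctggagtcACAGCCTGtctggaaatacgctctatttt
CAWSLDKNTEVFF, dataset 2, 5 cells: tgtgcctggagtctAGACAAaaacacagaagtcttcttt
TRBJ2-7 chain, dataset 2, 4 cells: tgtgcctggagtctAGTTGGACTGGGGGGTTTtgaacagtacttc
TRBJ2-7 chain, dataset 2, 2 cells: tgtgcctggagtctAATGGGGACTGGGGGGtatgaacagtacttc
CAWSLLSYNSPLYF, without uveitis, 18 cells: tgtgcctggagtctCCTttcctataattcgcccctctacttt
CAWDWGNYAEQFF, without uveitis: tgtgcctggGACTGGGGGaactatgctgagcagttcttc
TRBJ2-7 chain, dataset 1, 1 cell with TRAV10: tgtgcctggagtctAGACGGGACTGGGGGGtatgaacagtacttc
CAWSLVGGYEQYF, dataset 1: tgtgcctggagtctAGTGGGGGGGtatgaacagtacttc

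TRBV31 was found in 5 of 176 cells of dataset 1, in 55 of 324 cells of dataset 2 and in 44 of 470 cells without uveitis. These were 2.84% of cells (0.929 to 6.50%), 17.0% (13.1 to 21.5%) and 9.36% (6.88 to 12.4%), and no 2 of the 3 intervals overlapped. The intervals count each cell separately, although 37 cells of dataset 2 and 18 without uveitis were each 1 clonotype. The uveitis datasets stood on either side of the library without uveitis, with a mean of 9.91% ± 9.99 (SD, n = 2 pools). By cells, TRBV31 ranked first of 17 Vβ genes in dataset 2, 3 of 21 without uveitis and 12 of 20 in dataset 1.

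By distinct clonotypes the libraries lay closer together. TRBV31 accounted for 5 of 138 clonotypes of dataset 1 (3.62%, 1.19 to 8.25%), 11 of 142 of dataset 2 (7.75%, 3.93 to 13.4%) and 26 of 411 without uveitis (6.33%, 4.17 to 9.13%), and all 3 intervals overlapped. Over the datasets with uveitis it averaged 5.68% ± 2.92 (SD, n = 2 pools), and it was 5.71% of their pooled clonotypes (16 of 280, 3.30 to 9.11%). It ranked 11, 6 and 6 among the Vβ genes of the 3 libraries by this measure. The Vβ genes closest to TRBV31 in clonotype share over the 3 libraries were TRBV26 (0.725%, 7.04% and 6.33%) and TRBV13-1 (3.62%, 4.93% and 3.89%). TRBV26 had the same number of clonotypes as TRBV31 without uveitis, 26, each in a single cell, and TRBV31 was there in 44 cells and TRBV26 in 26.

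Most of the distance between the libraries in cells lay in their largest TRBV31 clonotypes. Without the TRBV31 clonotype found in the most cells, its share in dataset 2 was 6.27% (18 of 287 cells, 3.76 to 9.73%), and without uveitis it was 5.75% (26 of 452, 3.79 to 8.32%). In dataset 1, where every TRBV31 clonotype was a single cell, leaving out 1 gave 2.29% (4 of 175, 0.626 to 5.75%). The 3 intervals then overlapped.

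**Figure D1:**
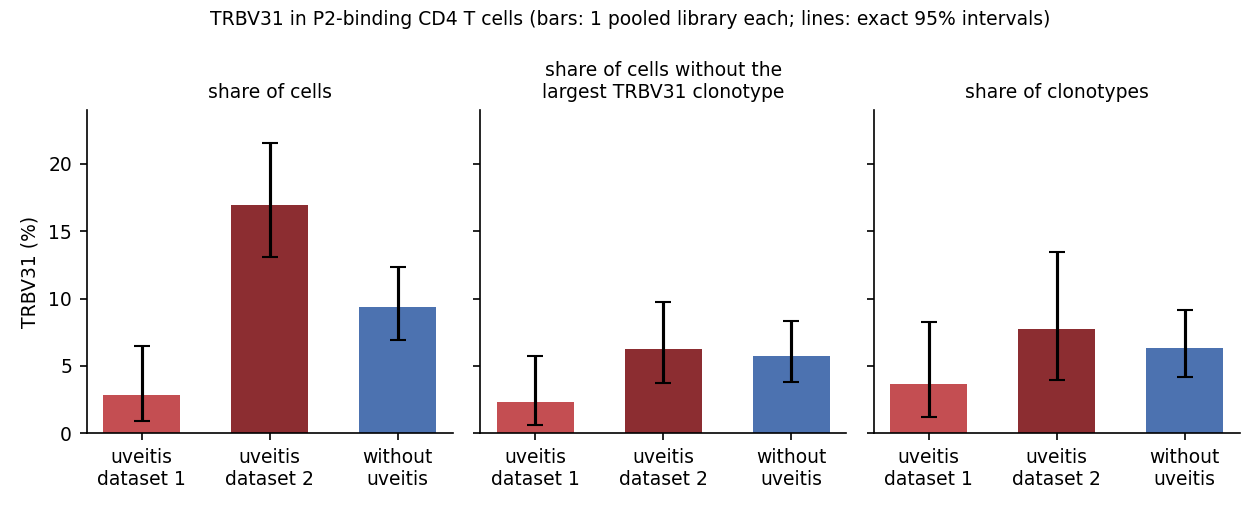
TRBV31 as a percent of cells with both chains, of the same cells without the largest TRBV31 clonotype of each library, and of distinct clonotypes, in uveitis datasets 1 and 2 and the library without uveitis. Bars are single pooled libraries and lines are exact 95% intervals, which are apart in the left panel (2.84%, 17.0% and 9.36%) and overlap in the other panels. The left and middle panels count each cell separately, also cells of 1 clonotype.

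TRBV31 cells were concentrated in few clonotypes in dataset 2 and, less so, without uveitis. Of the 55 TRBV31 cells of dataset 2, 48 were in a clonotype of more than 1 cell (87.3%, 75.5 to 94.7%), beside 63.2% of the 269 cells with another Vβ gene. Without uveitis 20 of 44 were (45.5%, 30.4 to 61.2%), beside 14.1% of 426. In dataset 1 none of 5 was, with an interval that reached 52.2%, beside 29.8% of 171. TRBV31 had 5 cells per clonotype in dataset 2 and 1.69 without uveitis, above each other Vβ gene with at least 10 clonotypes. Those genes ranged from 1.30 to 2.31 over 6 genes in dataset 2 and from 1 to 1.44 over 13 genes without uveitis. Among genes with fewer clonotypes in dataset 2, TRBV12-2 lay above TRBV31, with 1 clonotype of 34 cells. TRBV19 had 3.22 cells per clonotype there and TRBV13-1 had 2.71. Without the largest TRBV31 clonotype, the share in clonotypes of more than 1 cell was 61.1% in dataset 2 (11 of 18, 35.7 to 82.7%) and 7.69% without uveitis (2 of 26, 0.946 to 25.1%), and the values of the cells with other Vβ genes lay inside both intervals.

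The largest TRBV31 clonotype of dataset 2 joined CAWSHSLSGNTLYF with TRBJ1-3 to TRAV9-4 and TRAJ31 (CDR3α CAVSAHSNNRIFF). Its 37 cells were 67.3% of the TRBV31 cells and 11.4% of all cells of that library (8.17 to 15.4%). It carried 8 bases between V and J and lacked the last base of the V end and the first of TRBJ1-3, and no TRBD was called in it. Its TRB contigs had a median of 13 UMIs (2 to 99) and its TRA contigs a median of 3 (1 to 16).

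The other 3 expanded TRBV31 clonotypes of dataset 2 all kept the whole 14-base V end. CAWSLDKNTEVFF with TRBJ1-1 was paired with TRAV12-2 and TRAJ31 (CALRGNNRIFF) in 5 cells. The TRBJ2-7 chain of 4 cells was paired with TRAV9-1 and TRAJ32, with 15 amino acids in both CDR3. The TRBJ2-7 chain of 2 cells was paired with TRAV9-1 and TRAJ27, with a CDR3α of 14 amino acids. A TRAV9 gene was thus found in 3 of the 4 expanded clonotypes and TRAJ31 in 2 of them. Both were common in that library with other Vβ genes too. There, TRAV9 genes were in 38 of 131 clonotypes and 103 of 269 cells, and TRAJ31 in 16 and 71. These counts take in clonotypes of 1 cell, and expanded ones were not counted apart.

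Without uveitis, 18 cells shared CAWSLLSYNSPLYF with TRBJ1-6 and an alpha chain of TRAV9N-4 and TRAJ12 with a CDR3α of 15 amino acids, which was 40.9% of the TRBV31 cells there and 3.83% of all cells (2.29 to 5.99%). This β chain had the fewest bases between V and J of all 38 TRBV31 rearrangements. It kept the 14 bases of the V end and the whole start of TRBJ1-6, with only 3 bases, CCT, between them. No TRBD was called in it. The remaining expanded clonotype, in 2 cells, paired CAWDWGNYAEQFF with the same alpha chain.

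**Figure D2:**
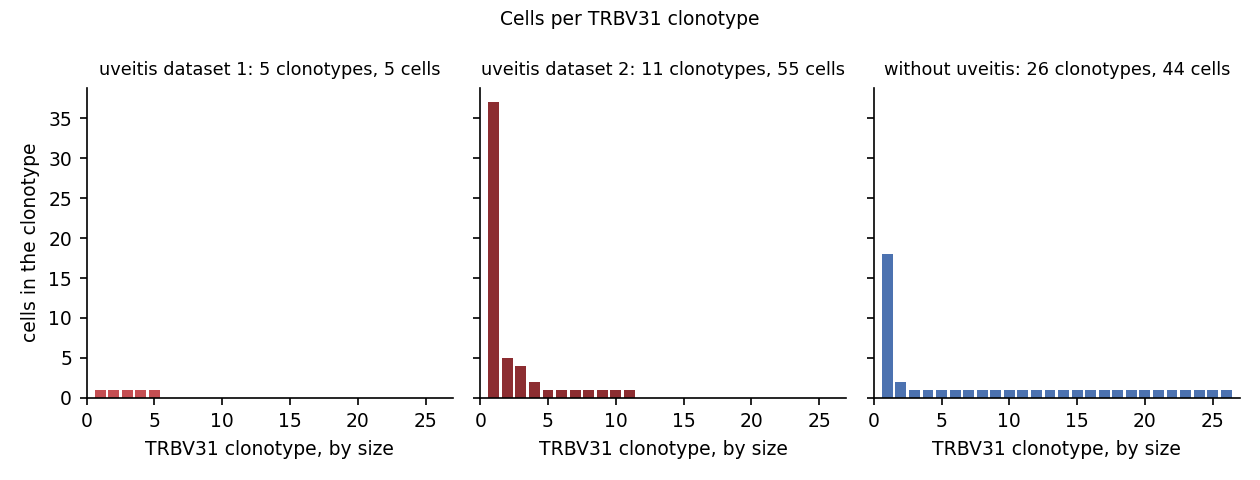
Cells in each TRBV31 clonotype, ordered by size, in the 3 libraries. Dataset 1 had 5 clonotypes of 1 cell each, dataset 2 had 11 clonotypes led by 1 of 37 cells, and the library without uveitis had 26 led by 1 of 18 cells.

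J segments are named by the D-J-C cluster they belong to, TRBJ1 or TRBJ2. A TRBJ1 segment was used by 1 of 5 TRBV31 clonotypes of dataset 1 (20%, 0.505 to 71.6%), 4 of 11 of dataset 2 (36.4%, 10.9 to 69.2%) and 9 of 26 without uveitis (34.6%, 17.2 to 55.7%). Among clonotypes with other Vβ genes the shares were 23.3%, 24.4% and 35.6%, each inside the interval of TRBV31. By cells the picture was set by the largest clonotypes, which both used TRBJ1: 44 of 55 TRBV31 cells of dataset 2 (80%) and 26 of 44 without uveitis (59.1%) did, and without those clonotypes 7 of 18 (38.9%) and 8 of 26 (30.8%) did.

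Within the clusters, TRBJ2-7 was the leading partner with uveitis, with 4 of 5 TRBV31 clonotypes of dataset 1 and 3 of 11 of dataset 2. Clonotypes with other Vβ genes used it in 21.8% and 21.4%, below the interval of dataset 1 and inside that of dataset 2 (27.3%, 6.02 to 61.0%). Without uveitis TRBJ2-1 and TRBJ2-5 led with 6 clonotypes each of 26, and TRBJ2-7 had 2. Among clonotypes with other Vβ genes there, these 3 segments had 9.61%, 14.8% and 19.2%. TRBJ1-2 was found in every library, in 1, 2 and 3 clonotypes, and TRBJ1-3 in 0, 1 and 3. TRBJ1-5 was found in none of the 42 TRBV31 clonotypes, beside 3.01%, 2.29% and 3.38% of clonotypes with other Vβ genes in the 3 libraries. At TRBJ2-7 the intervals of dataset 1 (80%, 28.4 to 99.5%) and of the library without uveitis (7.69%, 0.946 to 25.1%) did not overlap. The 4 clonotypes of dataset 1 included 2 with the same β nucleotide sequence, however. Counted once, that sequence left an interval for dataset 1 that overlapped the one without uveitis. It also took in the 21.8% given above for clonotypes with other Vβ genes. At the other segments the intervals of the 3 libraries overlapped, with 5, 11 and 26 clonotypes behind them.

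**Figure D3:**
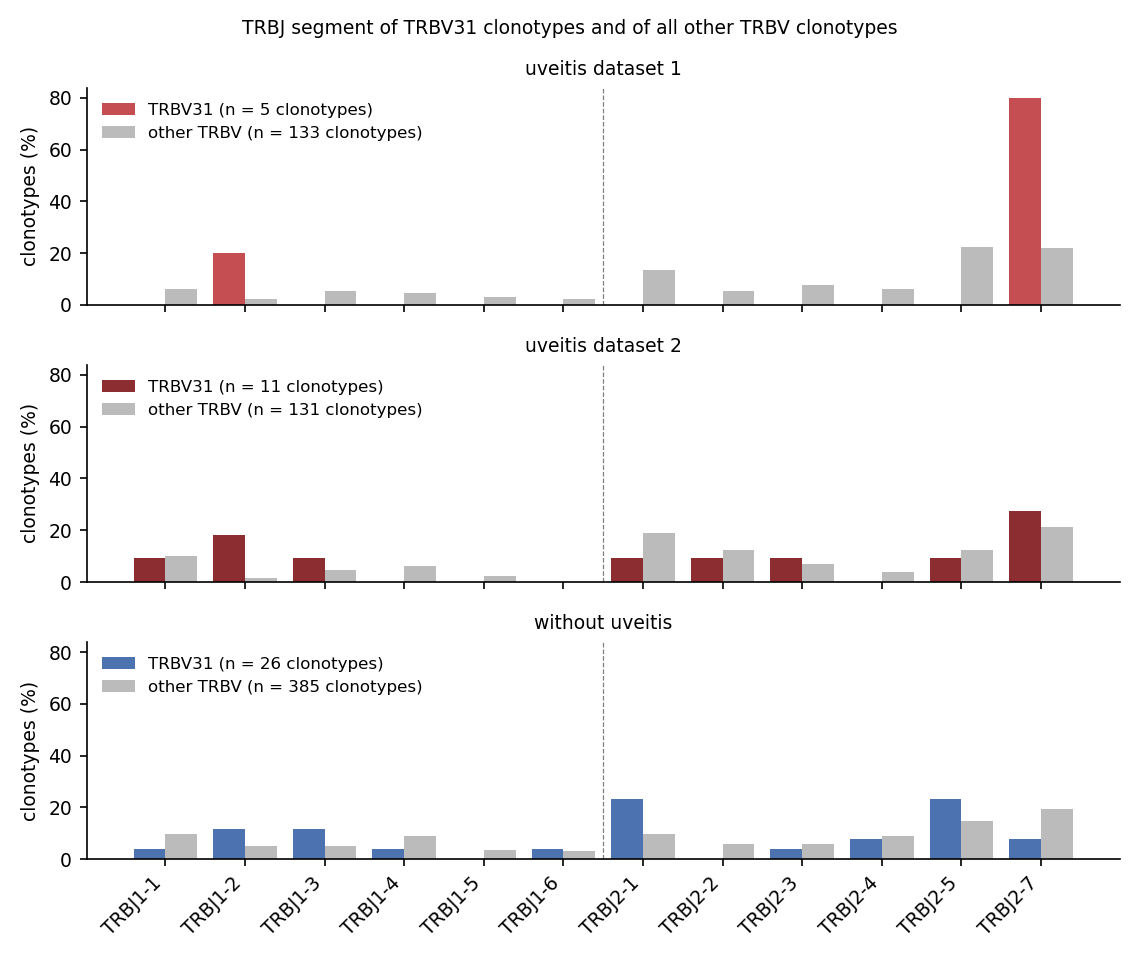
Percent of clonotypes with each TRBJ segment, for TRBV31 (coloured) and for all other Vβ genes together (grey), in each library, with a dashed line between the TRBJ1 and TRBJ2 clusters. TRBV31 used TRBJ2-7 in 4 of 5 clonotypes of dataset 1 and spread over 8 segments in dataset 2 and 10 without uveitis.

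The D calls are set here beside the order of the locus. TRBD1 lies ahead of both J clusters, whereas TRBD2 lies between them, past TRBJ1. TRBD2 was called in 17 of the 42 TRBV31 clonotypes, all 17 with a TRBJ2 segment. These count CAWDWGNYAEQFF 3 times and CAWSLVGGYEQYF 2 times, each in 1 β nucleotide sequence with different alpha chains. TRBD1 was called in 17 too, 10 with TRBJ1 and 7 with TRBJ2. None of the 17 TRBD2 calls stood beside a TRBJ1 segment for TRBV31, with an interval that reached 19.5%, and 13 of 219 did among clonotypes with other Vβ genes (5.94%, inside that interval). TRBD1 and TRBD2 share G-rich stretches, and the files do not give the length of the match behind a call. Some calls had a clearly longer run of 1 D between V and J, and others did not. The longest runs of TRBD1 and TRBD2 were 5 and 12 bases in the TRBJ2-7 chain found with TRAV10 in dataset 1. They were 10 and 5 in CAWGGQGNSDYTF of dataset 1, and 6 and 6 in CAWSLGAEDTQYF of dataset 2, both called TRBD1. In the sequences themselves, 31 of 38 TRBV31 rearrangements held a run of at least 5 bases of TRBD1 or TRBD2 between V and J. These were the rearrangements with a called D, so the count is no separate check of the calls.

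No D was called in 4 of 11 TRBV31 clonotypes of dataset 2 and 4 of 26 without uveitis, but these were 44 of 55 and 21 of 44 TRBV31 cells, since the largest clonotype of each library was among them. Every productive TRBV31 contig was annotated with TRBC1, also the 5, 11 and 20 contigs that used TRBJ2, whose own constant gene is TRBC2. The 206, 326 and 467 other productive TRB contigs of the libraries were all annotated with TRBC1 as well, so that this field does not tell the clusters apart.

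CDR3β length is the number of amino acids from the conserved cysteine to the closing phenylalanine. For TRBV31 it averaged 13.6 ± 0.894 (SD over 5 clonotypes) in dataset 1, 14.0 ± 0.894 (SD over 11) in dataset 2 and 13.8 ± 0.981 (SD over 26) without uveitis. Clonotypes with other Vβ genes averaged 14.2 ± 1.39, 13.9 ± 1.64 and 13.8 ± 1.51. With uveitis TRBV31 averaged 13.8 ± 0.283 (SD, n = 2 pools), so that the libraries differed by less than 1 amino acid. In cells with an alpha chain TRBV31 CDR3β ran from 12 to 16 amino acids.

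**Figure D4:**
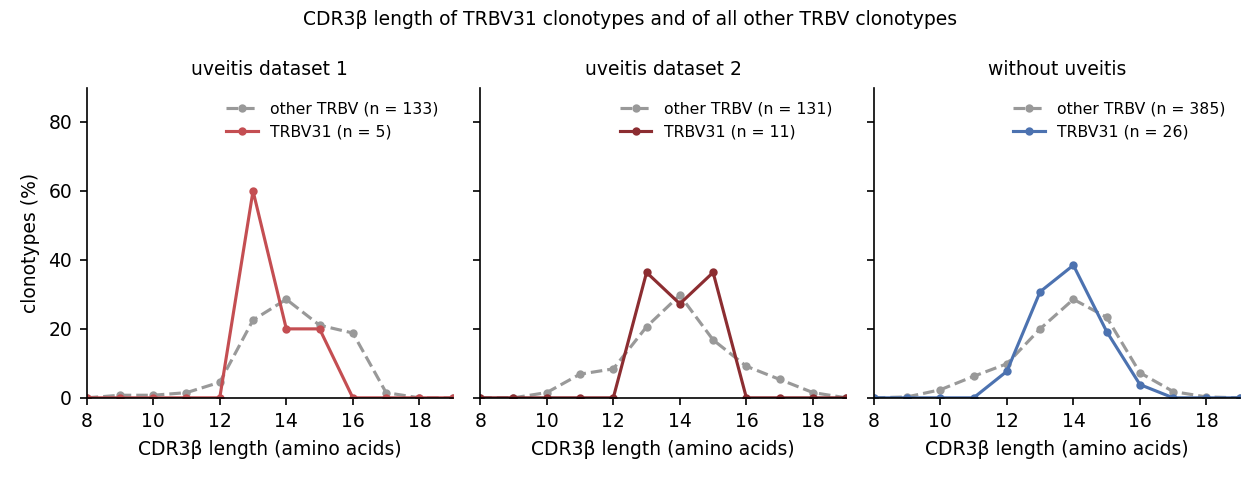
Distribution of CDR3β length in amino acids over clonotypes of TRBV31 (solid) and of all other Vβ genes (dashed), as percent of clonotypes in each library. TRBV31 clonotypes had 12 to 16 amino acids, with means of 13.6, 14.0 and 13.8, and other Vβ genes spread further to both sides.

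Germline TRBV31 gives a CDR3β that opens with Cys-Ala-Trp-Ser and ends with the first bases of a leucine codon. Of 38 distinct TRBV31 rearrangements, 27 opened with CAWS, 5 with CAWR, 4 with CAWG and 1 each with CAWD and CAWN. The 14-base end printed above was complete in 19, which all read CAWSL, and in 1 of these it was followed by CA, the further bases of the longer transcript. The remaining 19 had lost bases of the V end, down to 9 of its 14 bases. Between V and J lay 3 to 18 bases, with a median of 10, and in 11 of 38 there were no more than 8.

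When the hairpin at a coding end is opened off its tip, palindromic P bases are left, which after the 14-base end would begin with A. The base after a complete V end was A in 8 of 19 TRBV31 rearrangements, G in 8, C in 3 and T in 0. It was A in 2 of 2 in dataset 1, 4 of 6 in dataset 2 and 2 of 11 without uveitis. The longer annotated transcript has C at this place. An untemplated A gives the same letter as a P base, and these cannot be told apart.

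At the J side, TRBV31 rearrangements had lost 0 to 7 bases. The mean loss was 3.5 ± 1 bases in dataset 1 (SD over 4 rearrangements), 2.09 ± 2.59 in dataset 2 (over 11) and 2.04 ± 1.85 without uveitis (over 23). For other Vβ genes the means were 2.69 ± 2.51, 3.03 ± 2.51 and 2.85 ± 2.65, so that TRBV31 lay within the spread between rearrangements in each library.

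TRBV31 chains took many alpha partners, with 5 different TRAV genes in 5 clonotypes of dataset 1, 8 in 11 of dataset 2 and 20 in 26 without uveitis. TRAV9 family genes were found in 4 of the 11 TRBV31 clonotypes of dataset 2 (36.4%, 10.9 to 69.2%), beside 29% of clonotypes with other Vβ genes. Without uveitis they were found in 6 of 26 (23.1%, 8.97 to 43.6%), beside 9.61%. Dataset 1 had no TRAV9 family gene among its 5 TRBV31 clonotypes and had 2 of the TRAV10 family. TRAV genes of 1 family have near-identical copies at several places of the locus (9-4 and 9N-4, for example), so the copy named is uncertain where the family is not.

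TRAV9-1 was the leading single gene of dataset 2, with 3 of 11 TRBV31 clonotypes. Without uveitis TRAV13-1 and TRAV9N-4 led with 3 of 26 each, and in both cases all 3 clonotypes shared 1 CDR3α. Among J segments of the alpha chain, TRAJ31 and TRAJ32 led in dataset 2 with 2 of 11 each, beside 12.2% and 3.05% with other Vβ genes. TRAJ31 was in 42 of the 55 cells, all from the clonotypes of 37 and 5 cells, beside 71 of 269 cells with other Vβ genes. Without uveitis TRAJ15 was in 4 of 26 TRBV31 clonotypes and TRAJ12, TRAJ23 and TRAJ6 in 3 each. CDR3α paired with TRBV31 averaged 13.0, 13.6 and 13.9 amino acids in the 3 libraries, beside 13.4, 13.5 and 13.4 with other Vβ genes.

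The same alpha chain recurred with different TRBV31 chains. Of the CDR3α paired with TRBV31, 0 of 5 did so in dataset 1, 1 of 10 in dataset 2 and 2 of 22 without uveitis. Such recurrence was not counted for other Vβ genes, so it is not shown to be particular to TRBV31. Without uveitis the TRAV9N-4 and TRAJ12 chain was found in 21 cells with 3 TRBV31 chains, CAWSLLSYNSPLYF (18 cells), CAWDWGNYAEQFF (2 cells) and a TRBJ1-4 chain of 15 amino acids (1 cell), and with no other Vβ gene. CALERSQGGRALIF of TRAV13-1 and TRAJ15 was likewise found with 3 TRBV31 chains in 3 cells, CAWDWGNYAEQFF, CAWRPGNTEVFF and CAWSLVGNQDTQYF. In dataset 2 the TRAV9-1 and TRAJ32 chain was found with the TRBJ2-7 chain of 4 cells and, in 1 cell, with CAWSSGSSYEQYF. The CDR3α of these 3 recurring alpha chains are given so that they can be told from other chains of the same genes, and in the last line so is the TRBJ1-4 chain of TRBV31, with capitals as above.
TRAV9N-4 and TRAJ12, without uveitis: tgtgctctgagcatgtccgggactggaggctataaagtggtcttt
TRAV13-1 and TRAJ15, without uveitis: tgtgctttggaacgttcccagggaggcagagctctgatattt
TRAV9-1 and TRAJ32, dataset 2: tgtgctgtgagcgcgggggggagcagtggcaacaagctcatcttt
TRBJ1-4 chain of TRBV31, without uveitis: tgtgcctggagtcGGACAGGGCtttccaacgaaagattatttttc

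The reverse was seen as well. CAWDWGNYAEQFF occurred with 3 alpha chains in 4 cells without uveitis, each time in the β nucleotide sequence printed above. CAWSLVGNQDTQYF occurred with 2 alpha chains there, and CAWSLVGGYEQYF with 2 in dataset 1. In 1 of these cells of dataset 1 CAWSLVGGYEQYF had 3 UMIs beside 8 of a TRBV13-2 chain. Which of the TRB chains its alpha chain belongs to cannot be told. Several alpha chains were thus seen for 1 of 4, 0 of 11 and 2 of 23 TRBV31 CDR3β, beside 22 of 102, 12 of 116 and 15 of 368 for other Vβ genes.

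In 1 case, without uveitis, the same TRBV31 CDR3β protein sequence was written in different nucleotides. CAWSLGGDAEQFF with TRBJ2-1 was found in 2 cells, each with an alpha chain of TRAV10N and TRAJ23, and those alpha chains, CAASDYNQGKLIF and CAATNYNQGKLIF, had the same length. Their β sequences are printed because they differ between V and J, with 10 and 8 bases there, and in the bases lost from TRBJ2-1.
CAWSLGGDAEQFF with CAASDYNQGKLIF: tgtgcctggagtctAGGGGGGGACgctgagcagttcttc
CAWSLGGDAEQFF with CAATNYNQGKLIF: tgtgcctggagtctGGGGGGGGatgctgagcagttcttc

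Between libraries no TRBV31 CDR3β was shared, among 4 in dataset 1, 11 in dataset 2 and 23 without uveitis. Sharing was not counted for other Vβ genes, so this is not shown to be particular to TRBV31. The closest pair was the TRBJ2-7 chain found with TRAV10 in dataset 1 and the TRBJ2-7 chain of 2 cells in dataset 2, which differed by D6M in their protein sequence, counted from the cysteine as position 1 with the residue of dataset 1 first. Both had a called TRBD2 and 16 bases between V and J. Their alpha chains differed, TRAV10 with TRAJ22 in dataset 1 and TRAV9-1 with TRAJ27 in dataset 2. The CDR3α of the largest clonotype, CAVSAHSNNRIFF, did occur in other libraries, in 2 cells of dataset 1 with TRBV5 and in 3 cells without uveitis with TRBV4, in each case with TRAV9-4. The recurring TRAV9-1 and TRAJ32 chain of dataset 2 was found without uveitis in 1 cell with TRBV5. Within a library, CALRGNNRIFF was found in 1 further cell of dataset 2 with TRBV4, and the TRAV8D-2 and TRAJ11 chain of 1 TRBV31 cell of dataset 2 was found in 4 cells there with TRBV13-2. Without uveitis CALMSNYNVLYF was found in 1 TRBV31 cell with TRAV6N-5 and in 1 cell with TRBV17 and TRAV6-6.

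A further TRB beside TRBV31 was seen in 1 of 5 cells of dataset 1, 1 of 55 of dataset 2 (1.82%, 0.0460 to 9.72%) and 2 of 44 without uveitis (4.55%, 0.555 to 15.5%). Among cells with other Vβ genes in dataset 2 it was 10.4%, which fell to 1.63% (4 of 245, 0.447 to 4.13%) without the 24 cells that shared 1 pair of TRB chains. The TRBV31 contig had fewer UMIs than its partner in dataset 1 (3 against 8 of TRBV13-2) and in dataset 2 (2 against 9 of TRBV1). Without uveitis 1 cell had 11 UMIs of TRBV31 and 10 of TRBV3. None of these partner chains was found in more than 1 cell.

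The remaining cell without uveitis carried 3 TRBV31 contigs. Its productive chains used TRBJ1-3, with 4 UMIs, and TRBJ2-5, with 3, and it also held a contig with no CDR3 and 62 UMIs. The TRBJ2-5 chain was seen in 1 further cell, there with 43 UMIs.

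TRBV31 contigs were about as deeply sampled as those of other Vβ genes. Productive TRBV31 contigs had a median of 10 UMIs (3 to 18) in dataset 1, 12 (1 to 99) in dataset 2 and 17 (3 to 101) without uveitis, beside medians of 11, 9.5 and 15 for other Vβ genes. Only 1 of the 120 TRBV31 contigs rested on 1 UMI.

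**Figure D5:**
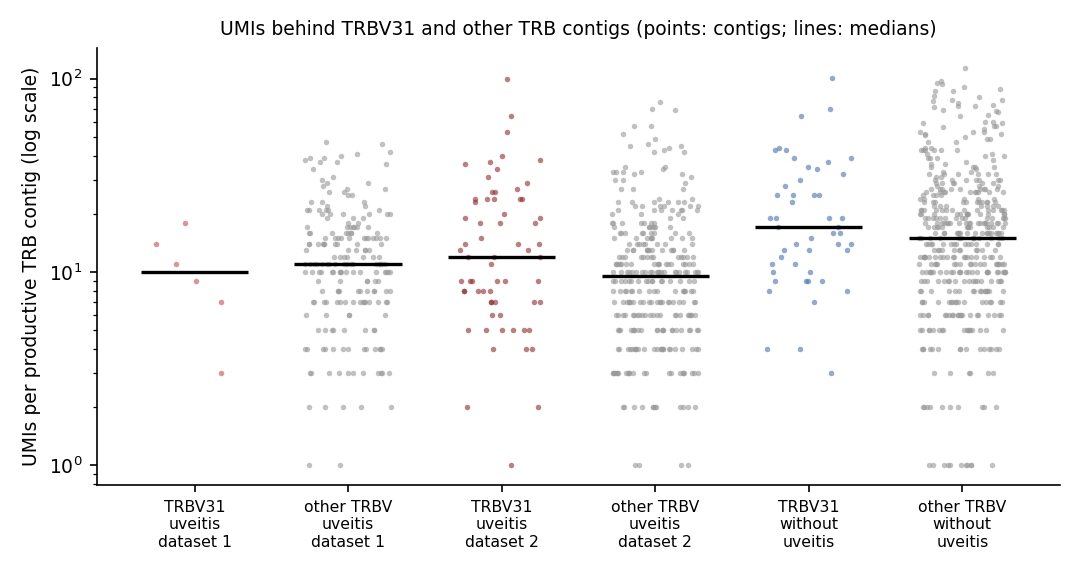
UMIs of each productive TRB contig on a log scale, for TRBV31 and for all other Vβ genes in each library, with points for contigs and lines for medians. The TRBV31 medians of 10, 12 and 17 UMIs lie beside 11, 9.5 and 15 for other Vβ genes, and the ranges overlap throughout.

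An alpha chain was missing from 1 of 6 TRBV31 cells of dataset 1, 10 of 65 of dataset 2 (15.4%, 7.63 to 26.5%) and 4 of 48 without uveitis (8.33%, 2.32 to 20%). Among cells with other Vβ genes the shares were 12.3%, 8.5% and 5.12%, each inside the interval of TRBV31. Of the 10 cells in dataset 2, 9 carried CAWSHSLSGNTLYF, the chain of the 37-cell clonotype, whose TRA contigs had a median of 3 UMIs where they were found. Without uveitis 2 of the 4 carried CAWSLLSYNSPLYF, and 1 carried a chain found in no other cell, with TRBJ2-1 and 17 amino acids. Dataset 1 had 4 TRBV31 CDR3β over its 6 cells, and the TRBJ2-7 chain found with TRAV10 was there in 1 cell with and 1 cell without an alpha chain.

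Contigs not marked productive are called non-productive here, also those with no call. They were 1 of 7 TRBV31 contigs in dataset 1 (14.3%, 0.361 to 57.9%), 0 of 65 in dataset 2, where the interval reached 5.52%, and 5 of 54 without uveitis (9.26%, 3.08 to 20.3%). Among contigs of other Vβ genes they were 8.44%, 2.98% and 7.89%, each inside the interval of TRBV31. That of dataset 1 joined TRBJ2-5 (CDR3 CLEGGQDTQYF, which does not open with CAW, 6 UMIs) in a cell with a productive TRBV12-1 chain of 10 UMIs. Without uveitis, 1 used TRBJ1-2 and had 5 UMIs beside a productive TRBV2 chain of 9 UMIs, and another used TRBJ2-1 and had 5 UMIs beside a TRBV13-2 chain of 4 UMIs. A further 2 were in barcodes with no productive TRB, with 21 and 15 UMIs, and the last was the contig of 62 UMIs described above. Only the contig of dataset 1 and the TRBJ1-2 contig were flagged as not productive, and the others had no call and no CDR3. Of the 6, 3 were 961, 971 and 1033 bases long, and productive TRBV31 contigs were 533 to 753 bases long.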

How the data were processed

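Contig tables of 3 single-cell TCR libraries (10x Genomics 5′ kit with V(D)J enrichment) were analysed. The authors made them with Cell Ranger, whose annotation reference was built on GRCm38. The deposited table gives for each contig its chain, V, D, J and C gene, CDR3, the productive flag, and whole-number counts of reads and UMIs with no normalization. The matching mRNA libraries were not used here.

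Chains marked productive were kept. A cell was a barcode with a productive TRB and TRA, and for each cell TRBV31 was taken where present, with the TRA of most UMIs. Clonotypes were defined per library by V gene, J gene and CDR3 nucleotides of both chains. Doublets were not called. Groups came from the labels. Since the conditions had 2 pools and 1, shares are given with exact 95% intervals and no test. CDR3 bases were matched from both ends to GENCODE M21 germline segments. The named items were, per library, the 3 TRBJ, TRAV and TRAJ in the most TRBV31 clonotypes, up to 5 clonotypes in more than 1 cell, chains found in more than 1 library, and the 2 Vβ genes nearest in clonotype share. Others were named after their values were seen: all recurring chains, further TRB chains, junction bases, cells without TRA and non-productive contigs. The gene, these lists and rules were chosen with earlier results of these data known.

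Reads were not used as counts of molecules, and depth is given in UMIs. Scripts recovered 8 of 8 known values in simulated tables. The tools were scipy 1.17.1 (intervals), pandas 2.3.3, Python 3.11.15, matplotlib 3.10.9 and numpy 2.4.6. Alternatives were TRBV31 counted only as the TRB with most UMIs, a minimum of 2 UMIs per contig, cells with 1 chain of each kind, all barcodes with a TRB, omission of the largest TRBV31 clonotype, clonotypes by amino acids, cells in place of clonotypes, and omission of either uveitis dataset.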

Additional observations from a re-analysis of the deposited data

How the results depend on the processing

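No paired analysis was possible because the uveitis datasets are numbered and the library without uveitis is a single pool, so that the conditions share fewer than 2 replicate numbers. Of 232 values recomputed under alternatives that leave out no library, 205 stayed within the limit set for the value reported and 27 did not. The limit was the counting interval or the SD of the uveitis pools, and a fixed fold limit for numbers of TRAV families. For the combined uveitis datasets that SD was wide, 61.7 points for the share in expanded clonotypes and 9.99 for the share of cells. Falls from 80% to 50% and from 12% to 4.76%, without the largest TRBV31 clonotypes, therefore counted as within it. Counting only TRBV31 chains with most UMIs gave 0 cells with a further TRB in datasets 1 and 2 and a median of 12.5 UMIs in dataset 1. Requiring exactly 1 TRA and 1 TRB, which allows 0 cells with a further TRB in any library, left 3 cells in dataset 1 with 0 TRBJ1 clonotypes, a CDR3β mean of 14 and a median of 14 UMIs, and gave a non-productive share of 2.33% without uveitis. A minimum of 2 UMIs gave 0 cells with a further TRB in dataset 2. Clonotypes by TRB alone, with all barcodes, placed 66.7% of TRBV31 cells of dataset 1 (4 of 6) in a clonotype of more than 1 cell. Without the largest TRBV31 clonotype, dataset 2 had 6.27% of cells, 61.1% in expanded clonotypes and a median of 10.5 UMIs, the library without uveitis had 5.75% and 7.69%, and dataset 1 had 0 TRBJ1 clonotypes. Cells in place of clonotypes moved the shares of dataset 2 to 17.0% for the gene, 80% with TRBJ1 and 20% with a called D, those without uveitis to 9.36%, 59.1% and 52.3%, and those of the combined uveitis datasets to 12%, 75% and 26.7%. Leaving out dataset 2 moved values of the combined datasets beyond these limits, and leaving out dataset 1 moved none beyond them. The share in expanded clonotypes lay at 0 (dataset 2 left out) or 87.3% (dataset 1 left out), and the share with a further TRB at 20% or 1.82%. The non-productive share of contigs lay at 14.3% or 0, the median UMIs at 10 or 12, and the TRAV families at 4 or 6. The share of cells, 12% in the combined datasets, lay at 2.84% or 17.0%, within its wide limit.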
